A study of Mus musculus with 7 samples.

Results

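The mRNAs of the translation initiation and elongation factors were examined in a table of RNA reads from a study of RNA bound to Ezh2 in nuclei of mouse embryonic stem cells. The members are all nuclear protein-coding genes whose symbol starts with Eif1 to Eif6, Eef1 or Eef2. They number 68 of 22015 nuclear coding genes in the annotation, and 66 of them had at least 1 read in the sense orientation. The study used RNA immunoprecipitation sequencing (RIP-seq), in which a protein is captured from a lysate with an antibody and its attached RNA is turned into cDNA and sequenced. Ezh2 is the histone methyltransferase of Polycomb repressive complex PRC2. The labels describe 7 libraries from untreated cells kept in medium with LIF, the cytokine that holds embryonic stem cells undifferentiated. For 5 of them RNA was captured with an anti-Ezh2 antibody from cells of strain 129X(M.castaneusX129) with no labelled Ezh2 mutation, and these include a technical replicate, a biological replicate and 2 deeper sequencing runs of earlier samples. The other 2 are controls. For 1 the anti-Ezh2 antibody was applied to Ezh2 null cells of the strain M.musculus, and for 1 IgG was applied to cells of strain 129X(M.castaneusX129). The null cells therefore differ from the others in strain as well as in Ezh2, and the labels do not say whether any line is a single clone.

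The values come from 1 table of read sequences and counts whose library no label names. The name of the table holds the letters WT and BR, which no label explains or ties to a library. The table was treated as 1 pool. There are thus no replicates, no SD and no tests between groups, and no value here is an enrichment over Ezh2 null or IgG. Intervals are exact 95% intervals of counting, which take each read as independent. Molecules copied by PCR are counted as often as they were copied, so these intervals can be too narrow.

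Translation begins when initiation factors bring the small ribosomal subunit and the initiator tRNA to the capped end of an mRNA and move along it to the start codon. In elongation, eEF1A delivers each aminoacyl-tRNA and eEF2 drives the ribosome forward by a codon. These factors are abundant in dividing cells, and their mRNAs are among the common housekeeping transcripts of embryonic stem cells. Several factors have long charged stretches rich in lysine and glutamate, whose codons consist mostly of the purines A and G.

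Stretches of coding sequence at the most-used starts of several much-read factors are shown here because later results refer back to them. The genome build is GRCm38, the letters are those of the mRNA strand of the GENCODE M21 transcripts, and the capitals mark the 34 bases covered by the matched part of a 40-base read that begins at the gene's most-used start position. Reads are the reverse complement of the RNA, so the start of a read lies at the last capital. For Eif3a the 100 bases with most read starts are given, and for the others 60 bases around the most-used start. The printed stretch held 80.8% of the reads in Eif3a, 53.9% in Eef2, 20.6% in Eif3c, 55.0% in Eif3b, 42.8% in Eef1b2 and 22.7% in Eif5b. In Eif3c another 100 bases, not printed, held 72.8%. Eif4a2 and Eef1a1 had more reads than Eif5b but coding shares of 28.7% and 32.6%, and are not shown.
Eif3a, chr19:60768750-60768849, minus strand, exon 17 of 22, codons 839 to 872: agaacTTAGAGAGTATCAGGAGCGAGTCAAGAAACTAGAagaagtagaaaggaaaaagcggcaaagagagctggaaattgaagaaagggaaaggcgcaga
Eef2, chr10:81179107-81179166, plus strand, exon 5 of 14, codons 213 to 233: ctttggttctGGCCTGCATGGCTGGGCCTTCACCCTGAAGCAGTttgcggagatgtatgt
Eif3c, chr7:126562598-126562657, minus strand, exon 8 of 21, codons 227 to 246: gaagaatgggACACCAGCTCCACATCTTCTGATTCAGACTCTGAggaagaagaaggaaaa
Eif3b, chr5:140419757-140419816, plus strand, exon 1 of 19, codons 133 to 152: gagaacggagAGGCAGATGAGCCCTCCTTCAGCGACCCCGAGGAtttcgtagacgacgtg
Eef1b2, chr1:63179255-63179314, plus strand, exon 5 of 6, codons 135 to 155: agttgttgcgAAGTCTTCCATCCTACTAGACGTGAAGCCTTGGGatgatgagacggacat
Eif5b, chr1:38021785-38022196, plus strand, exons 5 and 6 of 24 joined, codons 370 to 389: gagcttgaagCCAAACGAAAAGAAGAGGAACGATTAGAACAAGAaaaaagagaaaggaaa

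Purines made up 80% of the 100 bases of Eif3a and 83.3% of the 60 bases of Eif5b. The corresponding shares were 45% in Eef2, 63.3% in Eif3c, 58.3% in Eif3b and 53.3% in Eef1b2. Whole mRNAs of these genes held between 51.4% purine, in Eef2, and 58.7% purine, in Eif3a. Of these stretches only that of Eef2 was poorer in purine than its mRNA. The 34 bases at the most-used start alone held 70.6% purine in Eif3a and 79.4% in Eif5b, above their mRNAs. In Eif3a, 23.6% of all 34-base windows of the mRNA held at least as much. Those 34 bases held 38.2% in Eif3c, 47.1% in Eef2 and in Eef1b2, and 52.9% in Eif3b, each below its whole mRNA.

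The table held 34072479 reads of 6540936 sequences, with lengths of 12 to 40 bases, of which 31529044 reads were long enough to be searched. Of those, 28.2% lay in sense orientation on a single gene, 7.84% in antisense orientation, 11.3% matched several genes and 52.6% matched no annotated transcript. Among embryonic stem cell markers 10 of 12 had at least 50 sense reads, with levels of 0.155 to 811 RPKM (reads in sense orientation for each kb of exon and 1000000 reads searched). Nanog with 37 and Utf1 with 6 reads were below that number. For comparison, 29.0% of all nuclear coding genes had at least 50 sense reads. Of 8 early differentiation markers 2 had 50 reads and Gata6 had 0, and their levels ran up to 1.01 RPKM. All 8 fibroblast markers had 50 reads, with levels of 2.56 to 108 RPKM. The part of other cell types in the levels of the factors was not tested. In such bulk material, fewer cells of a type and less RNA per cell cannot be told apart.

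Translation factor mRNAs supplied 302308 sense reads, or 5.52% of the 5476041 sense reads of nuclear coding genes (5.50 to 5.54%). They make up 0.309% of coding genes and 0.302% of coding exon length. By distinct start positions, where a position counts once however many reads begin there, their share was 1.33% (1.29 to 1.37%). Eif3a alone held 67.3% of the factors' reads, and the 6 most-read factors held 92.7%. Without Eif3a the factors' share of coding reads was 1.88%. The high share thus belonged to few genes, and these are taken up role by role.

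At least 50 sense reads were found for 47 of the 68 factors, against 29.0% of all nuclear coding genes. A further 19 had 1 to 49 reads. Eif3j2, a copy of the loosely bound eIF3 subunit gene, and Eif4ebp3, a binding protein of eIF4E, had 0 reads, which allows up to 3. The median level was 0.954 RPKM for the factors and 0.0842 RPKM for all nuclear coding genes. Among genes with at least 50 reads, the medians were 1.595 RPKM for the factors and 0.975 RPKM for coding genes. By level 2 factors stood among the top 10 coding genes, 6 among the top 100 and 14 among the top 1000. Most factors thus lay within the ordinary range of detected coding genes, with a few far above it.

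**Figure D1:**
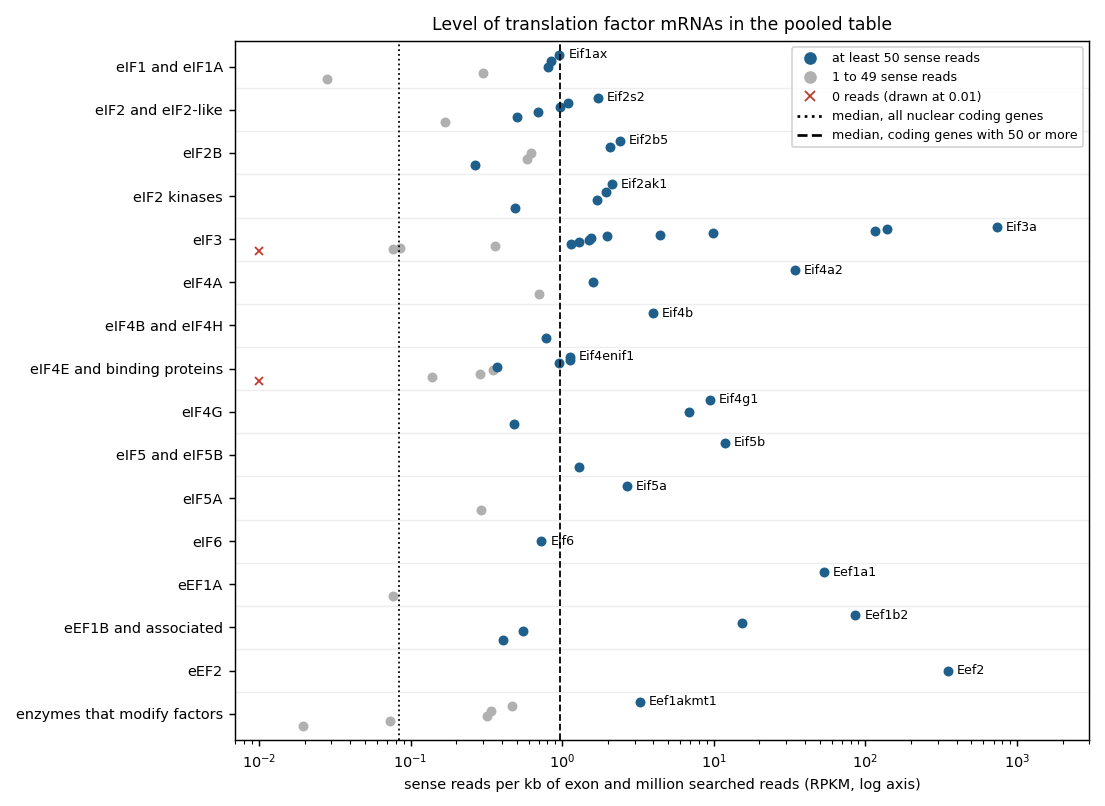
Level of each of the 68 translation factor mRNAs, in RPKM on a log axis, grouped by role; each point is 1 gene, dark points have at least 50 reads, and the gene with the highest level is named in each role. Eif3a (739 RPKM) and Eef2 (351 RPKM) lie far right of the dashed line at 0.975 RPKM, the median of coding genes with 50 or more reads, while most other factors lie close to it.

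eIF3 is the scaffold of many subunits that binds the small ribosomal subunit and other initiation factors. Its 14 genes held 77.3% of all factor reads, with a median of 1.52 RPKM and a range of 0 to 739 RPKM. Eif3a, the scaffold subunit of highest mass, had 203315 sense reads (202432 to 204201) and 739 RPKM. It ranked 5 among nuclear coding genes by level. Eif3c, a core subunit that contacts eIF1, had 15345 reads (15103 to 15589.7) and 139 RPKM. Eif3b, the core subunit that carries the eIF3g and eIF3i module, had 12202 reads (11986 to 12420.5) and 116 RPKM. These core subunits stood well above the rest of the complex.

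Eif3i, a propeller-shaped subunit of that module, had 1154 reads and 9.89 RPKM, which was 17.45 RPKM with reads on several genes divided equally and 32.6 RPKM per kb of the longest coding transcript. Eif3e, another subunit, had 935 reads and 4.41 RPKM, or 19.7 RPKM per kb of its longest coding transcript. Eif3g, an RNA-binding subunit, had 124 reads and 1.98 RPKM. The other detected subunits were close together in level. Eif3d, which can itself bind the cap of some mRNAs, had 241 reads and 1.54 RPKM. Eif3l and Eif3k, neighbours at the edge of the complex, had 172 reads with 1.499 RPKM and 110 reads with 1.29 RPKM. Eif3h, a subunit of the octamer core, had 58 reads and 1.14 RPKM. Eif3f, Eif3m, Eif3j1 and Eif3j2 stayed below 50 reads, with 33, 7, 14 and 0. Levels inside this single complex thus ran over several orders of magnitude in the table. Eif3j1 and Eif3j2 are near copies, and 80.8 further reads would go to each if reads that match several genes were divided equally.

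eIF1 and eIF1A hold the scanning ribosome open until it meets a start codon. Eif1ax, which encodes eIF1A on the X chromosome, had 159 reads and 0.958 RPKM. Eif1ad, a gene with an eIF1A-like domain, had 74 reads and 0.841 RPKM. Eif1a, a copy on chromosome 18, had 106 reads and 0.807 RPKM. Eif1 had 20 reads and its copy Eif1b had 1. None of the 5 genes exceeded the median of 0.975 RPKM of coding genes with 50 reads.

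eIF2 carries the initiator tRNA to the small subunit and its eIF2B partner recharges it with GTP. Eif2s2, the beta subunit of eIF2, had 367 reads and 1.72 RPKM. Eif2s1, the alpha subunit that the stress kinases phosphorylate, had 171 reads and 1.10 RPKM. The gamma subunit is encoded by a gene on X and a gene on Y. Eif2s3x had 116 reads and 0.965 RPKM, and Eif2s3y had 66 reads and 0.503 RPKM. Both copies were thus read. Eif2a, a separate protein that can also deliver initiator tRNA, had 133 reads and 0.690 RPKM, and Eif2d, a factor of reinitiation, had 39 reads. Equal division of reads that match several genes would add 752 reads to Eif2s2, 499 to Eif2a and 426 to Eif2s3x, more than their own counts, so these levels are uncertain.

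Among the eIF2B genes, Eif2b5, the catalytic epsilon subunit, had 196 reads and 2.40 RPKM. Eif2b1, the alpha subunit, had 167 reads and 2.05 RPKM. Eif2b3, the gamma subunit, had 55 reads and 0.268 RPKM. Eif2b4 (delta) and Eif2b2 (beta) had 48 and 37 reads. All 4 kinases that phosphorylate eIF2 in stress had at least 50 reads, against 29.0% of all nuclear coding genes. Eif2ak1, which senses heme shortage, had 381 reads and 2.13 RPKM. Eif2ak3, the kinase of endoplasmic reticulum stress, had 368 reads and 1.94 RPKM. Eif2ak2, activated by double-stranded RNA, had 273 reads and 1.69 RPKM. Eif2ak4, which responds to amino acid shortage, had 114 reads and 0.485 RPKM. In level the kinases lay in the same range as the eIF2 and eIF2B subunits.

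The eIF4 factors bind the cap and unwind the leader of the mRNA. Eif4a2, an RNA helicase, had 5776 reads (5628 to 5927) and 34.3 RPKM. Its close relative Eif4a1 had 218 reads and 1.595 RPKM, with 207 more if reads matching several genes were divided equally, and 806 more for Eif4a2. Eif4a3, which acts in the exon junction complex, had 47 reads. Eif4a2 was thus the most-read of the 3 helicase genes. Eif4g1, the scaffold that joins the cap-binding protein to the helicase, had 2157 reads and 9.37 RPKM. Eif4g2, a relative that lacks the site for eIF4E, had 2206 reads and 6.88 RPKM. Eif4g3, a further scaffold gene, had 167 reads and 0.479 RPKM. Eif4b, which stimulates the helicase, had 559 reads and 3.97 RPKM, and Eif4h, a smaller protein of similar function, had 137 reads and 0.783 RPKM.

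The mRNAs of eIF4E, its relatives and its binding proteins had levels from 0 to 1.13 RPKM. Eif4enif1, which brings eIF4E into the nucleus and into processing bodies, had 227 reads and 1.13 RPKM. Eif4e2, a cap-binding repressor, had 265 reads and 1.12 RPKM. Eif4e, the cap-binding protein of initiation, had 180 reads and 0.950 RPKM. Eif4ebp2, a repressor that binds eIF4E, had 68 reads and 0.373 RPKM. Eif4e1b, Eif4ebp1 and Eif4e3 had 25, 20 and 11 reads. The median of these 8 genes was 0.362 RPKM.

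Of the factors that act at subunit joining, Eif5b, the GTPase of this step, had 3650 reads and 11.9 RPKM. Eif5, the GTPase activator of eIF2, had 276 reads and 1.28 RPKM. Eif5a, the hypusine-bearing factor that helps peptide bond formation, had 200 reads and 2.67 RPKM, and its copy Eif5a2 had 46 reads. Eif6, which keeps the large ribosomal subunit apart from the small one, had 62 reads and 0.728 RPKM. Eif5b was thus the only one of these 5 genes with more than 1000 reads.

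Elongation factors were among the most-read members. Eef2, the translocase, had 36769 reads (36394 to 37147) and 351 RPKM, which ranked 7 among nuclear coding genes. Eef1b2, an exchange factor that reloads eEF1A with GTP, had 6847 reads (6686 to 7011) and 85.8 RPKM. Eef1a1, which delivers aminoacyl-tRNA, had 4181 reads and 53.2 RPKM. Eef1g, the structural subunit of the exchange complex, had 1267 reads and 15.5 RPKM. These genes ran from 15.5 to 351 RPKM. Eef1e1, an associated protein of the tRNA synthetase complex, had 57 reads and 0.555 RPKM. Eef1d, another exchange factor, had 83 reads and 0.406 RPKM. Eef1a2, the form of eEF1A found in muscle and nerve, had 5 reads. Eef1a1 and Eef1b2 have near copies elsewhere: equal division would add 4649 reads to Eef1a1 and 5349 to Eef1b2, for levels of 112 and 153 RPKM, and 1939 reads to Eef2.

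Of the enzymes that modify the elongation factors, 5 of 6 had fewer than 50 reads. Only 29.0% of all nuclear coding genes had at least 50, so such low counts are not particular to these enzymes. Eef1akmt1, a lysine methyltransferase of eEF1A, had 97 reads and 3.25 RPKM. Eef1akmt3, Eef1akmt2 and Eef1akmt4, further methyltransferases of eEF1A, had 40, 19 and 1 reads. Eef2kmt, which methylates eEF2, had 27 reads, and Eef2k, the kinase that inhibits eEF2, had 17. Eef1akmt1 thus stood above the median of 0.975 RPKM of coding genes with 50 reads, and the other 5 below it.

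Related translation genes outside the family names were listed for comparison. Of the 37 annotated ones, 26 had at least 50 reads, against 29.0% of all nuclear coding genes. Their median level was 1.74 RPKM. Abcf1, an ATP-binding protein that associates with eIF2, had 43827 reads and 315 RPKM. Pdcd4, an inhibitor of eIF4A, had 10257 reads and 104 RPKM. The helicases Dhx29 and Ddx3x, which assist scanning, had 2648 and 1476 reads with 13.97 and 8.87 RPKM. Dohh, an enzyme of hypusine formation, had 0 reads. A few of these genes thus lay far above the list's median.

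The reads of several much-read factors lay in narrow parts of the mRNA. In Eif3a, 33268 of 203315 reads (16.4%, 16.2 to 16.5%) began at 1 base, at codon 852 in the 100-base stretch printed above. That stretch held 80.8% of all Eif3a reads, spread over 99 start positions and 15756 distinct sequences. With the coding sequence cut into 10 equal parts, part 7 held 94.9% of the coding reads of Eif3a. In Eef2, 14772 reads (40.2%, 39.7 to 40.7%) began at codon 228, and parts 2 and 3 of the coding sequence held 29.3% and 61.3%. In Eif3c the most-used start, at codon 241, held only 6.60% (6.207 to 6.999%), yet parts 3 and 4 held 56.2% and 39.8%. Many neighbouring starts were used in Eif3a and Eif3c, while in Eef2 a single start dominated.

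In Eif3b, 2250 reads (18.4%, 17.8 to 19.1%) began at codon 147 in exon 1, and part 2 of the coding sequence held 71.0%. In Eef1b2, 1890 reads (27.6%, 26.6 to 28.7%) began at codon 150, and parts 5 to 8 held 13.3%, 19.1%, 43.5% and 20.5%. In Eif5b, parts 2 to 5 held 21.3%, 20.4%, 38.0% and 11.1%, and the last 5 parts together held few reads. In Eif4a2 the most-used start held 6.42% (5.804 to 7.086%). In Eef1a1 a start in the downstream UTR held 54.6% of the reads that matched this gene alone. None of the 6 mapped mRNAs was read evenly from end to end.

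**Figure D2:**
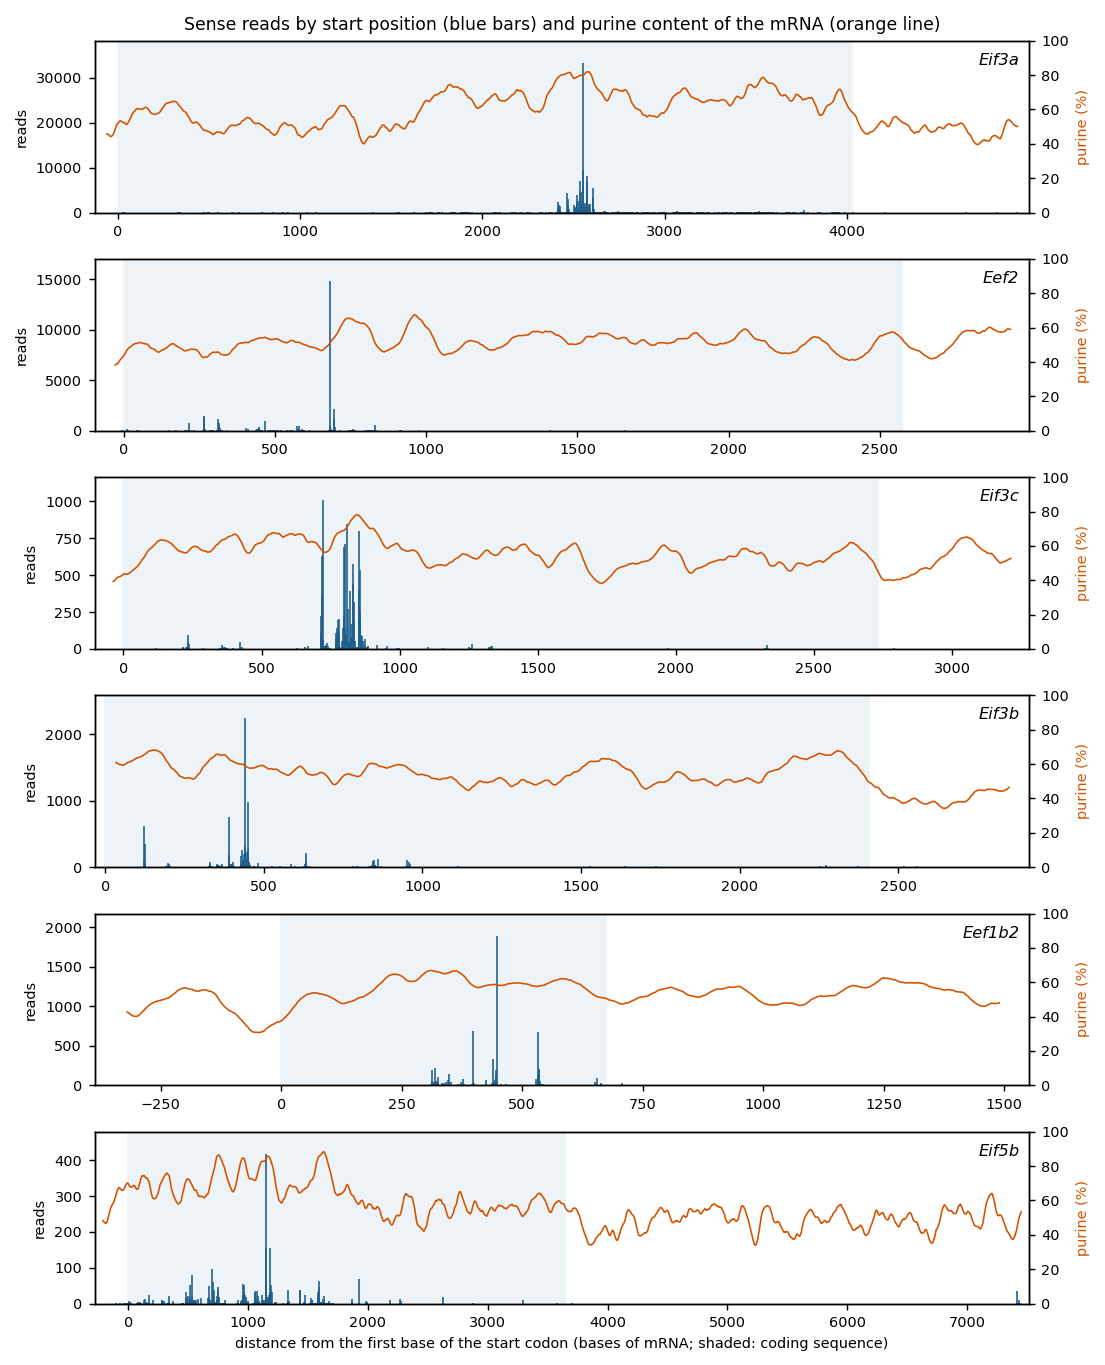
Sense reads by start position along the mRNA (blue bars, left axis in reads, a scale of its own for each gene) and purine content of the mRNA in windows of 34 bases, smoothed (orange line, right axis in percent), for 6 factors; the horizontal axis is the distance from the start codon in bases and the shading is the coding sequence. In Eif3a the bars stand in the stretch with most purine, in Eef2 the tallest bar (14772 reads) stands outside the purine peaks, and the downstream UTRs hold few bars.

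Other coding genes were clustered to a like degree. The most-used start of each gene held 19.6% of all factor reads and 21.6% of the reads of the other coding genes. It held over 20% in 25 of the 47 factors with 50 reads, against 55.6% of coding genes with 50 reads. The most-read 100 bases held over 50% of the reads in 17 of the 47, against 37.7% of coding genes. Their median share was 42.4% in the factors and 42.9% in coding genes. Among genes with at least 1000 reads the medians were 55.0% in the 12 factors and 50.7% in 657 coding genes. In these shares the factors stood close to other coding genes.

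By part of the transcript, factor reads lay mainly in coding sequence. The share there was 96.0% in the factors (95.9 to 96.0%) and 78.1% in the other coding genes (78.1 to 78.2%). The downstream UTR held 2.36% of factor reads and 15.4% of the other reads, and the upstream UTR 0.180% and 1.46%. Coding sequence makes up 55.0% of the mRNA length of the factors and 51.9% in the other genes. Eif3a weighs on this value: without it the coding share was 87.7%. Counting each start position once, it was 79.1% in the factors (77.9 to 80.4%) and 63.5% in the other genes (63.4 to 63.7%). By gene, the coding share of reads exceeded the coding share of length in 33 of 47 factors, against 55.6% of coding genes. It was over 90% in 19 of the 47, against 26.4% of coding genes.

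Several factors were instead read in the downstream UTR, which held over 50% of the reads in 13 of the 47. This was close to the 27.5% of coding genes with 50 reads, so it is not particular to the factors. All 116 reads of Eif2s3x lay there, as did 92.0% of Eif5a, 89.7% of Eif4ebp2, 81.1% of Eif1ax, 79.5% of Eif2ak2, 78.9% of Eif4e and 74.0% of Eif4e2. In Eef1a1 the share was 65.9%, and in Eif1a, Eef1e1, Eif2s3y, Eif1ad and Eif4b it was between 50.6% and 59.4%. These shares cover only reads that matched 1 gene. Equal division of reads that match several genes would add 426 to Eif2s3x and 4649 to Eef1a1. In which part of the transcript those reads lie was not determined. Eif6 was read in its upstream UTR, with 85.5% of 62 reads. The family was thus not uniform, and its total reflects Eif3a, Eef2, Eif3c, Eif3b and Eef1b2, whose coding shares were 99.97%, 99.0%, 99.97%, 99.5% and 99.0%.

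**Figure D3:**
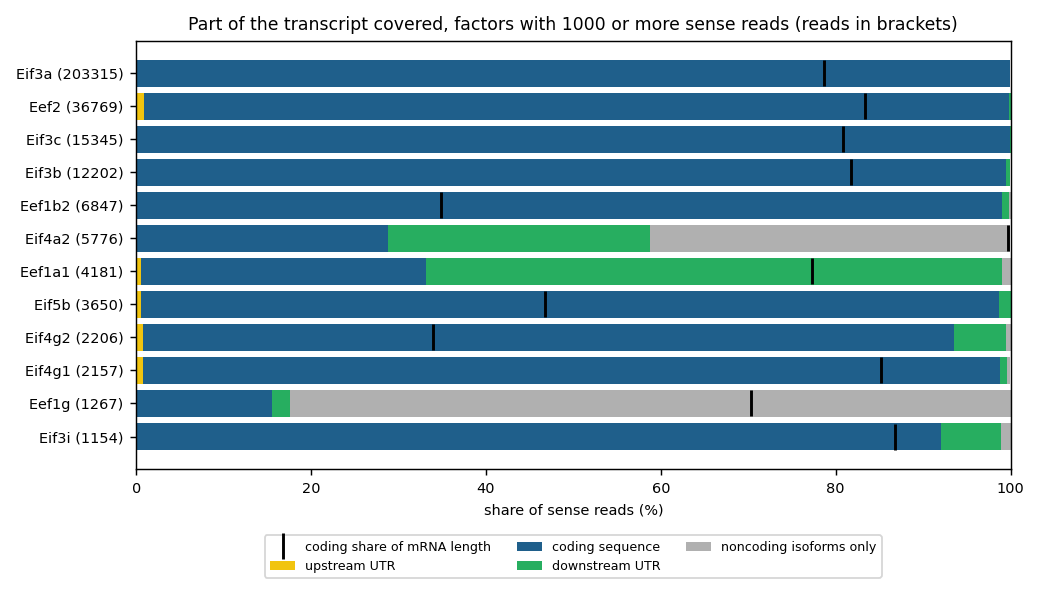
Share of sense reads (horizontal axis, percent) in the upstream UTR, coding sequence, downstream UTR and parts found only in noncoding isoforms, for the 12 factors with at least 1000 reads, whose counts stand in brackets; the black tick is the coding share of mRNA length. The 5 most-read factors are nearly all coding, Eef1a1 is mostly downstream UTR (65.9%) and Eef1g is mostly noncoding isoform (82.4%). Reads that matched several genes are not included.

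Reads that lie only on noncoding isoforms of a factor gene, such as transcripts with a retained intron, made up 1.504% of factor reads and 5.05% of the reads of other coding genes. Retained-intron isoforms held 75.6% of these factor reads and processed transcripts 23.9%. They exceeded 50% in 3 of the 47 factors, against 8.12% of coding genes. In Eef1g, 82.3% of the reads lay on a processed transcript. In Eif2a and Eif3e, 80.5% and 68.8% lay on retained-intron isoforms. In the helicase genes the retained-intron share was 41.2% for Eif4a2 and 39.9% for Eif4a1. The most-read sequence at the highest start of this kind is given for 4 genes, chosen after their values were seen, in lower case since each line is 1 whole matched read in mRNA orientation on GRCm38.
Eef1g, chr19:8967590-8967623, plus strand, 153 reads of this sequence: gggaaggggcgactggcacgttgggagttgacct
Eif4a2, chr16:23111960-23111993, plus strand, 315 reads: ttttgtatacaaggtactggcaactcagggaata
Eif3e, chr15:43278944-43278977, minus strand, 400 reads: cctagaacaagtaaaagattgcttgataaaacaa
Eif2a, chr3:58543347-58543380, plus strand, 7 reads: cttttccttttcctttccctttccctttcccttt

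The first 3 hold between 55.9% and 64.7% purine. The Eif2a sequence holds runs of C and U alone, with 0% purine. No repeat annotation or genome was searched, and where else these 34 bases occur was not tested.

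Purine content of the reads depended on Eif3a. Matched bases of factor reads were 69.8% purine (39.75% A and 30.04% G), against 52.1% in the factors' own mRNAs. In the other coding genes the reads were 59.9% purine and the mRNAs 51.1%. Without Eif3a the factor reads were 55.0% purine and the mRNAs 51.9%. By start position, the value was 59.2% in the factors, 57.1% without Eif3a and 56.1% in the other genes. Reads of 34 matched bases with at least 70% purine made up 69.2% of factor reads, 17.6% of factor reads without Eif3a and 24.9% of reads of other coding genes. Among all 34-base windows of the mRNAs the shares were 7.51%, 6.92% and 5.86%. Without Eif3a, the factors were thus below other coding genes in this share of reads, and slightly above them in purine content by start position. Eef2 weighs on this share of reads, with 36769 of the 98993 factor reads without Eif3a and 48.1% purine. By gene, the median read purine content was 55.6% in the 47 factors with 50 reads and 53.9% in coding genes with 50 reads.

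Within the family, Eif3a and Eif5b stood apart. Eif3a reads were 76.9% purine, against 58.7% in its mRNA, and 91.5% of its 34-base reads had at least 70% purine, against 23.6% of the windows of its mRNA. Eif5b reads were 77.9% purine, against 55.9% in its mRNA, with 71.0% of reads and 16.6% of windows at or above 70%. The motif GAAGAA, searched on the RNA strand alone, was present in 56.0% of Eif3a reads and in 10.9% of the windows of its mRNA. In Eif5b it was present in 25.1% of reads and 8.45% of windows. In the factors without Eif3a it was present in 6.47% of reads and 3.36% of windows, and in the other coding genes in 6.27% and 2.72%. These are matches of letters and do not show a binding site. The capitals of Eif3a and Eif5b printed above have 70.6% and 79.4% purine, and those of Eif3c and Eef2 have 38.2% and 47.1%.

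Gene by gene, reads were richer in purine than the mRNA in 33 of 47 factors, close to the 67.0% of coding genes with 50 reads. The median difference was 4.501 percentage points in the factors, with a range of -40.13 to 22.03, and 2.51 in coding genes. Read purine content of at least 70% occurred in 2 of 47 factors, Eif3a and Eif5b, against 3.43% of coding genes. Eif3d at 69.3%, Eif3g at 66.2%, Eif4g3 at 65.6%, Eif3c at 65.1% and Eef1g at 64.2% came next. Eef2, the member with the second-highest read count, had reads of 48.1% purine and an mRNA of 51.4%. Eif2a, with 13.1%, was the lowest. Across the 47 factors the level and the purine content of the mRNA had a Spearman correlation of 0.256, and level and read purine one of 0.308. With log2 level, the Pearson correlations were 0.4205 and 0.318 in the same order. Over 6378 coding genes with 50 reads the Spearman values were 0.176 and 0.122. All points share 1 pooled library, and the rank correlations are weak.

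**Figure D4:**
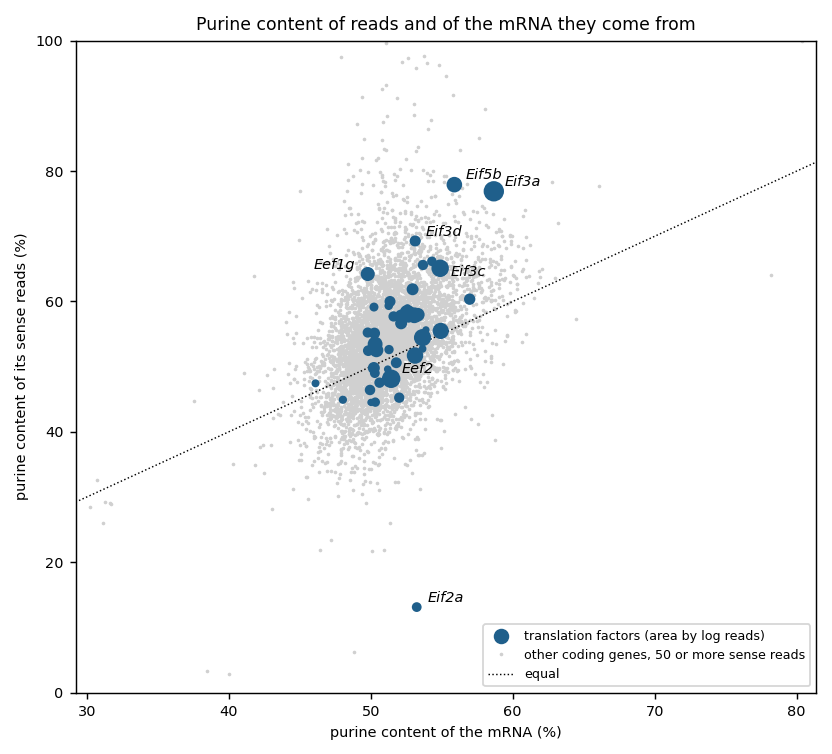
Purine content of the sense reads (vertical axis, percent) against purine content of the mRNA (horizontal axis, percent) for the 47 factors with at least 50 reads (blue, area by log reads) and for other coding genes with 50 reads (grey); the dotted line marks equal values. Eif3a and Eif5b lie above 75% on the vertical axis, Eef2 lies just below the line and Eif2a lies at 13.1%.

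By strand, antisense reads were few over all factors. They made up 2.56% of factor reads on both strands (2.50 to 2.61%) and 13.0% of those of the other coding genes (12.97 to 13.02%). Without Eif3a, which had 437 antisense reads (0.215%), the factors' share was 7.03%. By start positions it was 15.8% in the factors (14.8 to 16.9%) and 23.1% in the other genes (22.9 to 23.2%). Antisense shares were 0.160% in Eef1b2, 0.966% in Eif3b, 1.08% in Eif3c, 1.10% in Eif4a2 and 2.97% in Eef2. They were higher in Eif4g1, with 32.4% of reads and 27.2% of positions, and in Eif5b, with 26.6% and 13.7%. Most-read factors thus ranged from nearly no antisense reads to about 1 in 3.

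The antisense share lay above 50% with its whole interval in 7 of the 54 factors with at least 50 reads on both strands together. This was close to the 12.4% of coding genes. Eef1akmt3 had 167 antisense and 40 sense reads (80.7%, 74.6 to 85.8%), and it overlaps Mettl1 on the other strand. Eif3k had 280 antisense and 110 sense reads (71.8%, 67.1 to 76.2%). Eif4e1b had 61 and 25 (70.9%, 60.1 to 80.2%), and all of its sense reads lay in the downstream UTR. In Eif2b3, Eif4ebp2, Eif2b2 and Eif2s2 the shares were 65.0%, 62.4%, 61.1% and 54.9%. Eif2s2 overlaps the agouti gene, a, on the other strand. The other 5 of the 7 overlap no annotated gene there. A read with a best placement in sense on an overlapping gene was not counted as antisense. The antisense reads of Eef1akmt3 and Eif2s2 thus had no best placement in sense on the annotated transcripts of Mettl1 or a. By start positions, the interval lay above 50% in Eif4e1b alone, with 88.2%. That value rests on 4 sense start positions, whose reads were 0.477% purine. Eif4enif1 had 227 reads on each strand.

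**Figure D5:**
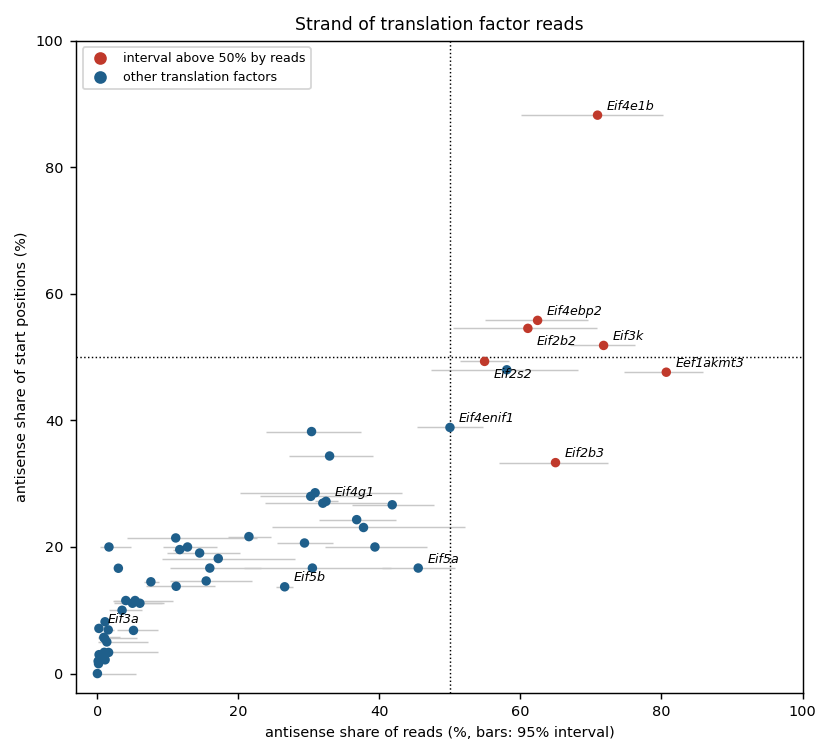
Antisense share of reads (horizontal axis, percent, with exact 95% intervals as bars) against antisense share of start positions (vertical axis, percent) for the 54 factors with at least 50 reads on both strands together; red points have their interval above 50% by reads. Most factors lie in the lower left, Eif3a at 0.215% of reads and 7.13% of positions, and 7 lie right of the dotted line with their whole interval.

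Reads of 36 and of 40 bases gave a check within the pool, though no label says which libraries they come from. Reads of 36 bases made up 11.8% of factor reads (11.72 to 11.95%), 17.3% without Eif3a, and 10.9% of reads of the other coding genes. Across the 68 factors the counts at both lengths had a Spearman correlation of 0.839. The share was 9.20% in Eif3a, 22.4% in Eef2, 35.9% in Eif3b and 5.38% in Eif3c. The 100-base stretch of Eif3a held 64.2% of its 36-base reads and 84.7% of its 40-base reads. Among the 12 factors with at least 1000 reads, the most-used start was the same at both lengths in Eif3a, Eef2, Eif3c, Eef1b2, Eif5b and Eef1g. In Eif3b, Eif4a2, Eef1a1, Eif4g2, Eif4g1 and Eif3i it differed, as it did in many factors with fewer reads. The start in the downstream UTR of Eef1a1 was the most used among the 40-base reads but not among the 36-base reads.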

How the data were processed

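The deposited table gives the authors' counts of reads for each distinct sequence, whole numbers not scaled to depth and with no header. The build mm9 is given in the submitters' processing notes. The table holds no coordinates, and the aligner and filters are not given in the sources used here. It was used as 1 pool.

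The leading 6 bases were dropped, at least 20 had to remain, and reads were matched with bwa 0.7.19 to GENCODE M21 transcripts (GRCm38) with up to 2 mismatches and no gaps. A read counted for a gene when its best placements lay on that gene alone in sense orientation (antisense placements were allowed on genes overlapping it), or when all of them were antisense to 1 gene. Introns and intergenic sequence were not searched, and strain differences can use up mismatches. The start position is the base under the 5′ end of the matched part. The part of the transcript was read at the middle base, with coding sequence first, then downstream UTR, upstream UTR and noncoding isoforms. Purine content of an mRNA is that of the transcript with the longest complete coding sequence. For Eif4a2 and Eif4g3 that model has almost no UTR, so their coding shares of length are not informative. Both genes are still counted in the comparisons with length.

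The deposited counts were turned into RPKM values by dividing sense reads by the kb of merged exons and by the searched reads in units of 1000000. Intervals are exact Clopper-Pearson or Poisson (scipy 1.17.1). On 20000 simulated reads of the factors, 87.9% were returned to their own gene and 11.7% matched several genes. Members and lists were chosen with earlier results of these data known. All factors with at least 50 sense reads or with 0 are named with values, with fuller values for the 6 most read. The longer window of Eif3a and the window of Eif5b were added after their values were seen.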

Additional observations from a re-analysis of the deposited data

How the results depend on the processing

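Of the main values, the factors' share of coding sense reads (5.52%) was 5.68% with no mismatch, 5.42% with at least 30 matched bases, 5.99% in 36-base reads, 5.35% in 40-base reads, 5.57% with no other gene within 1 further mismatch, 4.03% with each distinct sequence counted once, 1.33% with each start position once, 5.11% with reads on several genes divided equally and 1.88% without Eif3a. The number of factors with at least 50 reads (47) was 16 in 36-base reads alone and 24 with a minimum of 200, and between 43 and 58 under the other settings. The median level (0.954 RPKM) was 0.798 in 36-base reads, 0.799 with no other gene within 1 further mismatch, 1.45 by distinct sequences, 1.30 with reads on several genes divided and 1.37 per kb of the longest coding transcript.

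The coding share (96.0%) was 96.1% with no mismatch, 96.7% and 95.8% in 36-base and 40-base reads, 94.7% by distinct sequences, 79.1% by start positions, 87.7% without Eif3a and 96.6% with each gene's highest start left out. The purine content (69.8%) was 69.95% with no mismatch, 69.7% with 30 matched bases, 65.7% and 70.2% in 36-base and 40-base reads, 70.6% with no other gene within 1 further mismatch, 68.2% by distinct sequences, 59.2% by start positions, 54.95% without Eif3a and 71.75% without the highest starts. The antisense share (2.56%) was 2.28% with no mismatch, 2.62% with 30 matched bases, 3.93% and 2.43% in 36-base and 40-base reads, 2.27% with no other gene within 1 further mismatch, 4.47% by distinct sequences, 15.8% by start positions, 7.03% without Eif3a and 1.81% in factors with no gene on the other strand. The share on the highest start (19.6%) was 20.2% with no mismatch, 20.5% with 30 matched bases, 21.0% and 20.5% in 36-base and 40-base reads, 20% with no other gene within 1 further mismatch, 9.58% by distinct sequences and 26.4% without Eif3a. Taken at the 5′ end in RNA orientation, a setting run after seeing the data, it was 17.3%. The plan had worded the start position in this way, while the main values use the 5′ end of the read's matched part. The cause of these changes was not tested, apart from what each setting removes by its construction. The level of Eif3a (739 RPKM) was 689 with no mismatch, 343 in 36-base reads, 820.4 in 40-base reads and 1258 per kb of the longest coding transcript.

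No paired analysis was possible because the table is tied to no library, and leaving out a replicate was not run for the same reason. A share over all factors is set largely by Eif3a, and values by start position or without Eif3a are less so. Factors with fewer than 200 reads have wide counting intervals, and a read count of this size can rest on few molecules copied by PCR. Levels of genes with many reads matching several genes, such as Eef1a1, Eef1b2, Eif3i, Eif2s2, Eif2a and Eif2s3x, depend on how those reads are treated. Dividing them equally moved 8 of 47 levels by over 1.5 times, and taking the longest coding transcript as length moved 20.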

Other observations

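Among factors with fewer than 50 sense reads, some had reads of extreme composition or few starts. Eif4e1b reads were 0.477% purine and Eef2kmt reads 87.2% purine, and in both genes all sense reads lay in the downstream UTR. Eif3j1 had 13 of its 14 reads at 1 start and Eif4e3 had all 11 at 1 start. In Eef1akmt1, which had 97 reads, the most-read 100 bases held 95.9%, against 42.9% in the median coding gene with 50 reads.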
